A study of Mus musculus with 6 samples.

Results

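The miRNAs described here carry the names miR-466, miR-467, miR-669 and miR-297. They were taken by name from a table of small RNA counts in mouse spinal cord, and 67 of its 1482 rows belonged to them: 25 of miR-466, 12 of miR-467, 26 of miR-669 and 4 of miR-297. By its labels, the table compares cords contused at T10 with a 10 g weight dropped from 20 mm, labelled SCI (spinal cord injury), with cords of mice that had the laminectomy alone, labelled control. Injury markers ran against these labels, as described below. Each group had 3 mice, killed 2 days after surgery, and each library came from 1 cm of whole cord around T10, so it holds every cell type of that segment, blood and infiltrating cells included. Both groups had the laminectomy. Strain, sex and age were not used here. Library totals were 5568491 to 8889977 counts.

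A miRNA is cut from a hairpin precursor, and either side of the hairpin can give the mature strand: the 5p arm from its 5′ side and the 3p arm from its 3′ side. The strand loaded into Argonaute finds its target mRNAs mainly through the seed, bases 2 to 8. The families named here are known from mouse and rat and are best known for a large block of hairpins inside an intron of Sfmbt2, a Polycomb group gene that is imprinted, is expressed from the paternal copy and is needed in the trophoblast of the placenta. Many of their mature strands are built of short alternating repeats, so that members resemble each other and other repeat-rich RNAs.

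RefSeq gave a mature sequence for 7 of the 67 names. All 7 have their hairpins only outside Sfmbt2, so no strand from its intron is among them. None of the 7 passed the test described below. Of the 7, 5 are shown because they display short repeats, with the seed in capitals. How alike the strands from the intron are cannot be seen from these. The rows of miR-466i-3p and miR-466q were tested. miR-466k was listed at 2 to 8 counts a library, and miR-467f and miR-467g had no count in any library.
miR-466i-3p (GRCm38.p6, chr13:17747552-17747573, plus strand): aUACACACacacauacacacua
miR-466q (chr3:28419988-28420007, plus strand): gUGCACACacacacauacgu
miR-466k (chr3:85467396-85467418, plus strand): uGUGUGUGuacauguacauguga
miR-467f (chr11:69635419-69635439, minus strand): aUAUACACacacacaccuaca
miR-467g (chr5:34732872-34732892, minus strand): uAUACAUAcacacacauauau
The run GUGUGUGU or its reverse complement ACACACAC lay in 5 of the 7 member sequences and in 11 of the 1679 mature names of the RefSeq table (0.655%), those 5 included. The seeds of the 7 sequences all differed from one another.

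Most hairpins of these names lay in 1 place. On mm10, 70 hairpins that match a row of the table by name were found inside intron 11 of the longest Sfmbt2 transcript (chr2:10461473-10523944), all on the strand of the gene, and they spanned 51617 bases from chr2:10466663 to chr2:10518279. Of these, 28 were of miR-669, 23 of miR-466, 14 of miR-467 and 5 of miR-297. GENCODE lists 49 further miRNA genes in the same intron that matched no row by name: Mir466, Mir669j and 47 with gene model symbols only. Hairpins of Mir467a and Mir467b recurred there 11 times, with a median of 2454 bases between neighbouring starts (range 2413 to 4880). A further 9 hairpins lay elsewhere, outside Sfmbt2. By name, 53 of the 67 rows had hairpins only in the intron, 8 only elsewhere, 4 in both and 2 (both arms of miR-466a) matched no hairpin by name, though Mir466, whose symbol has no letter, lies in the intron. A name such as miR-467a stands for 10 hairpins, miR-669a for 12 and miR-466b for 8, so a row cannot be traced to a single copy.

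**Figure D1:**
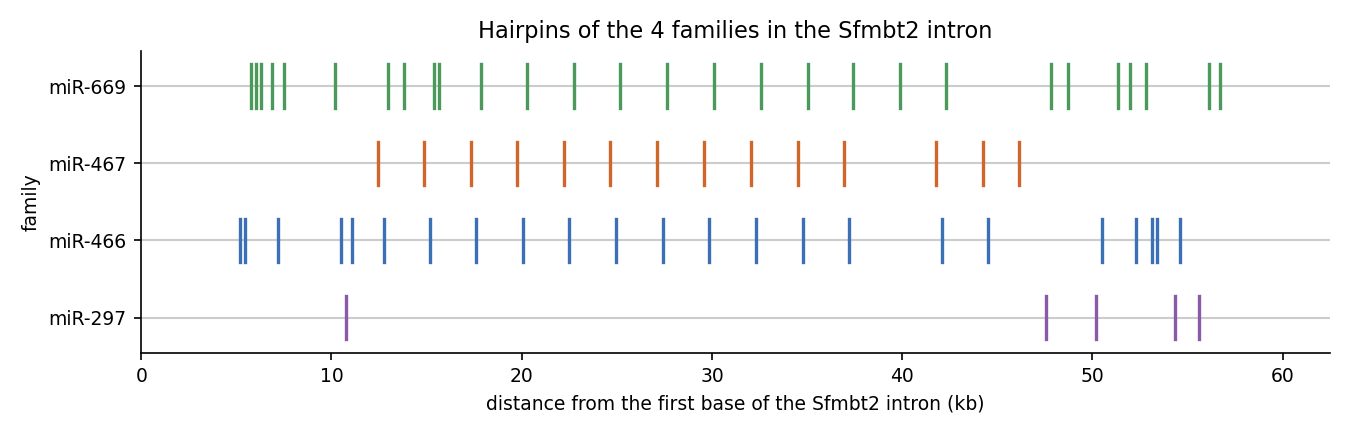
The 70 hairpins matched to rows of the table, by family, along the Sfmbt2 intron (x axis, distance from the intron's first base in kb; each tick is 1 hairpin). The 14 ticks of miR-467 are spaced almost evenly apart from 1 wider gap, with ticks of miR-466 and miR-669 between them.

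The labels were checked before the results. miRNAs that rise after injury ran against the labels, as did those of white blood cells: miR-21a-5p, which is known to rise in injured tissue, stood at 75100 to 129500 TMM-scaled CPM (counts scaled to library depth) under the control label and at 11140 to 12700 CPM under the SCI label. The leukocyte list (miR-223-3p and both arms of miR-142a) summed to 1423 to 2601 and 132 to 244 CPM, and the red cell list to 8994 to 32270 and 2430 to 5171 CPM. The neuron list (miR-124-3p, miR-128-3p, miR-218-5p) summed to 11540 to 14210 and 28960 to 34760 CPM, of which miR-128-3p and miR-218-5p were called higher and miR-124-3p was not (log2 -0.53); the oligodendrocyte list summed to 8048 to 10940 and 9607 to 10440 CPM. Defining miRNAs of cord tissue were thus present in all libraries. The deposited column names for SCI samples start with Normal. The labels of the groups may thus be swapped, which was not tested. Groups are therefore called by their labels, and every direction is that of the labels as deposited. Where 3 values stand against 3, the first are control-labelled libraries 1, 2 and 3 and the second SCI-labelled libraries 1, 2 and 3. Control-labelled library 3 stood apart from its group, with a skeletal muscle sum (miR-1a-3p, miR-133a-3p, miR-206-3p) of 37660 CPM against 8295 to 20290 CPM in the other libraries.

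The 4 families were sparse in this tissue, and 1 row dominated them. Of the 67 rows, 35 had at least 10 counts in at least 3 libraries and were tested. Rows with equal counts in all 6 libraries were taken as 1, which left 32: miR-467a-5p with miR-467b-5p, miR-467a-3p with miR-467d-3p, and miR-466d-5p with miR-466n-5p were the 3 such pairs. Of the 32, 1 was higher in the SCI-labelled libraries (3.13%; background 15.4% of the 617 rows tested) and 6 were lower (18.8%; background 22.4%), by edgeR's quasi-likelihood test at an adjusted p under 0.05 over all 617 rows. Of the 6, miR-466a-3p and miR-466b-3p had nearly equal counts. With such rows taken as 1 across the table, 1 of 31 members was higher and 5 were lower, against 98 and 128 of all 599 rows. The families thus had few higher calls and a share of lower calls near that of the whole table. Without miR-466i-5p and miR-297b-5p, which passed the count filter only through the group where they were high, 1 of 30 was higher and 5 were lower, against 15.6% and 20.8% of the 595 rows left by the same exclusion. The median log2 change was -0.17 over the 32 rows and -0.07 over all rows. In 11 of the 32 no library of one group lay within the range of the other, 3 of them higher and 8 lower, against 50.4% of all rows tested. In whole tissue, fewer cells of a type and less RNA per cell cannot be told apart.

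**Figure D2:**
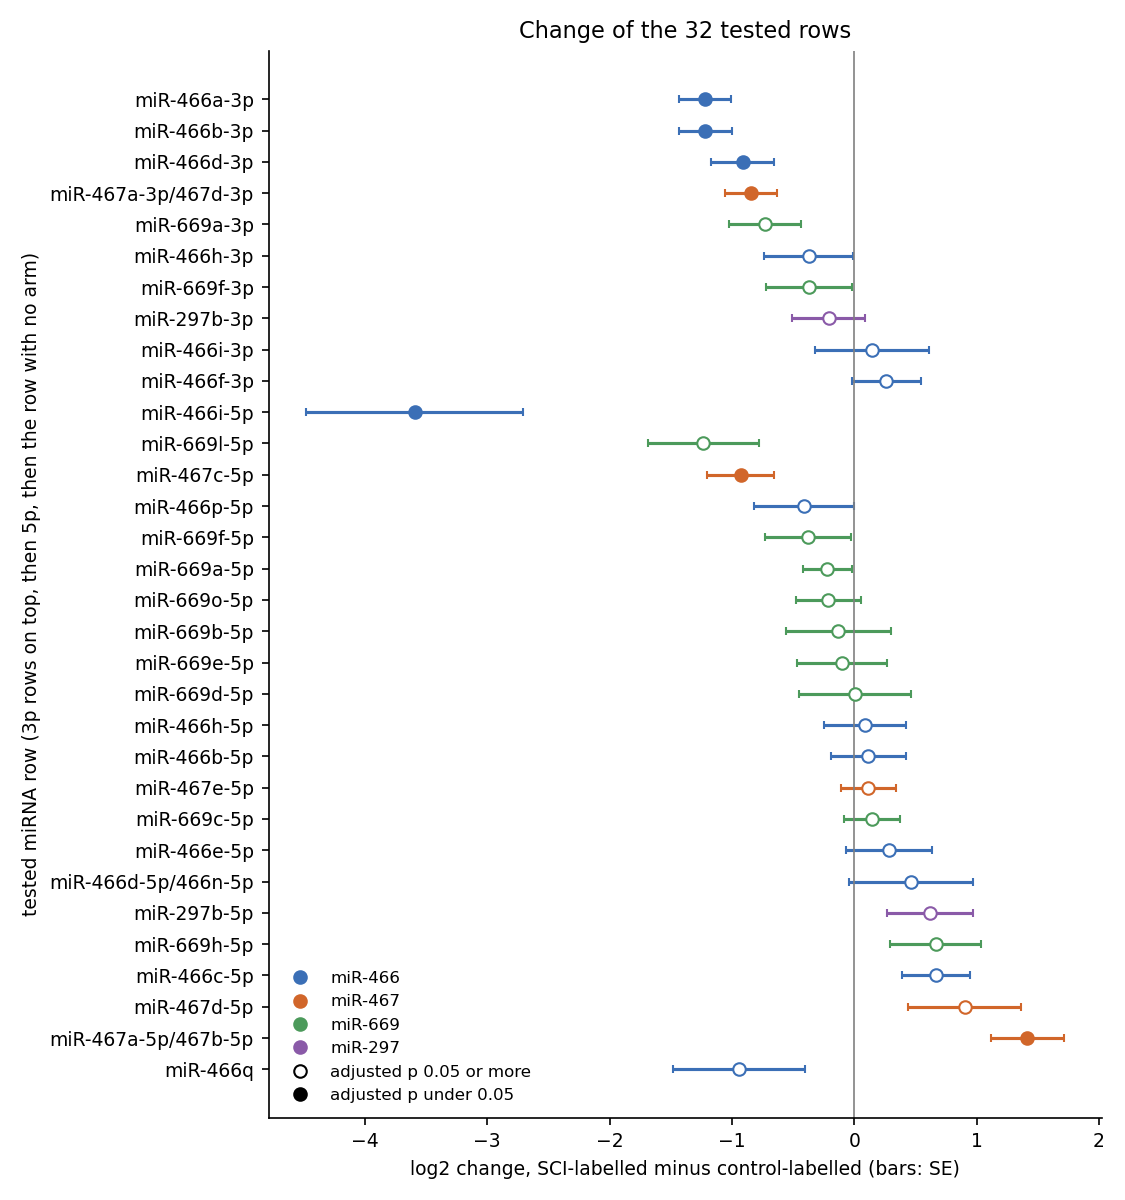
Log2 change of each of the 32 tested rows (x axis, SCI-labelled minus control-labelled, bars show the SE; colours mark the family, filled points have an edgeR adjusted p under 0.05). The 4 filled 3p rows lie left of 0, and among 5p rows miR-467a-5p/miR-467b-5p is filled on the right, with miR-467c-5p and miR-466i-5p filled on the left.

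The row of miR-467a-5p and miR-467b-5p, the 5p strand of the repeated hairpins in the intron, was the most abundant member and the only one called higher. It had 1591, 634 and 1299 counts against 3732, 2736 and 4507. Scaled, these were 255, 115 and 153 CPM against 461, 422 and 512 CPM. All 3 SCI-labelled libraries lay above all 3 control-labelled ones, and the control-labelled libraries were spread more widely, with library 1 the highest of them. The means were 175 ± 72.6 and 465 ± 45.1 CPM (SD, n = 3 each), a rise of 2.66-fold (log2 1.41, SE 0.30; edgeR adjusted p = 0.0068). The call was kept under all 17 alternatives, with adjusted p-values of 4.94e-05 to 0.0352. The neuron list above also summed higher in the SCI-labelled libraries, though its miR-124-3p was not called (log2 -0.525), and the leukocyte list summed lower. The part of these cells in this difference was not tested.

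The opposite strand of the miR-467a hairpins differed in the other direction. miR-467a-3p and miR-467d-3p, which shared their counts, had 127, 100 and 148 counts against 92, 66 and 84. These were 20.4, 18.1 and 17.4 CPM against 11.4, 10.2 and 9.54 CPM, with no overlap and a narrow spread in both groups. The row fell by 0.85 on the log2 scale (SE 0.21; edgeR adjusted p = 0.0145). Leaving out SCI-labelled library 1, 2 or 3 ended the call (edgeR adjusted p = 0.0541, 0.0584 and 0.073).

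The other 5p rows of miR-467 differed among themselves. miR-467c-5p, from 1 hairpin upstream of the repeated copies, had 63, 39 and 59 counts against 30, 26 and 43. That is 10.1, 7.08 and 6.95 CPM against 3.71, 4.01 and 4.88 CPM, lower in each SCI-labelled library than in any control-labelled one, with a log2 change of -0.93 (SE 0.28; edgeR adjusted p = 0.0294). The call was lost without control-labelled library 1 (adjusted p = 0.08 by edgeR), without any SCI-labelled library (0.133, 0.0989 and 0.0702 without 1, 2 and 3), with the replicate block (0.0697) and with upper quartile scaling (0.0524). miR-467e-5p, from 1 hairpin downstream of them, had 85, 66 and 87 counts against 104, 75 and 126 (log2 0.12, edgeR adjusted p = 0.716), and its groups overlapped. miR-467d-5p had 6, 2 and 13 counts against 14, 14 and 16, or 0.963, 0.363 and 1.53 CPM against 1.73, 2.16 and 1.82 CPM. Its groups did not overlap and its sign was that of miR-467a-5p (log2 0.90, SE 0.47; edgeR adjusted p = 0.167). It passed the edgeR test only without control-labelled library 3 (log2 1.48, adjusted p = 0.0258), and limma voom called it too (0.0471).

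Of the 14 tested rows of miR-466, 4 were called lower (28.6%, background 22.4%) and 0 higher (background 15.4%). Changes were positive in 7 rows and negative in 7, with a median log2 change of -0.14. Of the 4 called, 3 were 3p strands, 2 of these with nearly equal counts. miR-466b-3p, which 8 hairpins of the intron share, had 214, 156 and 340 counts against 117, 100 and 126. These were 34.4, 28.3 and 40.0 CPM against 14.5, 15.4 and 14.3 CPM. The SCI-labelled libraries lay close together and well below the control-labelled ones. The row fell by 1.22 on the log2 scale (SE 0.21; edgeR adjusted p = 0.0028), and miR-466a-3p, with counts that differed by at most 3 in any library, fell by 1.22 as well (adjusted p = 0.0027). The 2 rows stand for 1 signal. Their call was kept under all 17 alternatives, with adjusted p-values up to 0.0211.

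miR-466d-3p had 103, 67 and 156 counts against 56, 61 and 77, or 16.5, 12.2 and 18.4 CPM against 6.92, 9.41 and 8.75 CPM. The groups did not overlap, though control-labelled library 2 came near the SCI-labelled ones. The row fell by 0.91 on the log2 scale (SE 0.26; edgeR adjusted p = 0.0228). This call was kept under 11 of the 17 alternatives: by edgeR it was lost without control-labelled library 1 (adjusted p = 0.0516), without SCI-labelled library 1, 2 or 3 (0.111, 0.0539 and 0.075) and with the replicate block (0.0552).

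miR-466i-5p, from a hairpin on chromosome 13 outside Sfmbt2, rested on few counts. It had 30, 27 and 16 counts against 7, 0 and 0. Its row passed the count filter only through the control-labelled libraries, so it had to differ to be tested, and without any one of them it was no longer tested. It is among the 6 rows called lower, and its counts are given as a description, with no weight on that call. The 3p strand of the same hairpin, miR-466i-3p, whose letters are shown above, had 12, 3 and 19 counts against 16, 12 and 14 (log2 0.15, adjusted p = 0.81 by edgeR).

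The remaining tested rows of miR-466 did not pass. miR-466c-5p, the most abundant of them, had 50, 30 and 47 counts against 91, 51 and 97 (log2 0.67, SE 0.28; edgeR adjusted p = 0.0906), and its groups overlapped at 8.03 CPM in control-labelled library 1 and 7.87 CPM in SCI-labelled library 2. miR-466b-5p, the partner strand of miR-466b-3p, had 31, 18 and 26 counts against 38, 25 and 32 (log2 0.11). The joined row of miR-466d-5p and miR-466n-5p had 3, 9 and 20 counts against 18, 17 and 14 (log2 0.47). miR-466q, the other row shown above, varied most within groups, at 15, 23 and 48 counts against 31, 5 and 15 (log2 -0.94, SE 0.54; edgeR adjusted p = 0.21).

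No member of miR-669 or miR-297 passed the test, among 11 and 2 rows tested by edgeR, although 2 of the miR-669 rows and 0 of the miR-297 rows had an unadjusted p under 0.05, against 45.7% of all rows tested; DESeq2 called 0 of them and limma voom 1, miR-669l-5p. miR-669c-5p, from 1 hairpin, was the second most abundant member, at 479, 342 and 448 counts against 528, 550 and 544. Its levels of 63.9 ± 12.2 and 70.6 ± 12.4 CPM (SD, n = 3 each) differed by less than their spread (log2 0.14, SE 0.23; edgeR adjusted p = 0.654). miR-669a-3p, of a miRNA described as a repressor of the muscle regulator MyoD, had 323, 198 and 685 counts against 286, 231 and 271. At 80.7 CPM it was highest in control-labelled library 3, the library with the highest skeletal muscle sum. It stood at 51.9 and 35.9 CPM in libraries 1 and 2 and at 30.8 to 35.6 CPM in the SCI-labelled libraries. The muscle sum was lowest in control-labelled library 1 (8295 CPM) and second highest in SCI-labelled library 2 (20290 CPM), where miR-669a-3p stood at 35.6 CPM. miR-466b-3p (40.0 CPM) and miR-466d-3p (18.4 CPM) were also highest in control-labelled library 3. The part of muscle RNA in this was not tested. The log2 change of miR-669a-3p was -0.73 (SE 0.29, edgeR adjusted p = 0.0845), and it passed only without control-labelled library 2 (-0.99, adjusted p = 0.0262).

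The 5p strand of miR-669a was steady, at 186, 131 and 255 counts against 200, 158 and 200 (log2 -0.22, SE 0.20; edgeR adjusted p = 0.421). miR-669l-5p had 35, 17 and 24 counts against 21, 7 and 10 (log2 -1.23, SE 0.46; edgeR adjusted p = 0.0629). It passed the edgeR test without control-labelled library 3 (adjusted p = 0.0148), without SCI-labelled library 1 (0.0342) and with the replicate block (0.0366), and the limma voom test (0.0196). The other 7 tested rows of miR-669 had log2 changes between -0.38 (miR-669f-5p) and 0.66 (miR-669h-5p). miR-297b-3p had 108, 59 and 116 counts against 104, 98 and 73 (log2 -0.21, SE 0.30). miR-297b-5p had 7, 6 and 9 counts against 13, 13 and 13 (log2 0.62, SE 0.35; edgeR adjusted p = 0.207) and passed the count filter only through the SCI-labelled libraries.

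**Figure D3:**
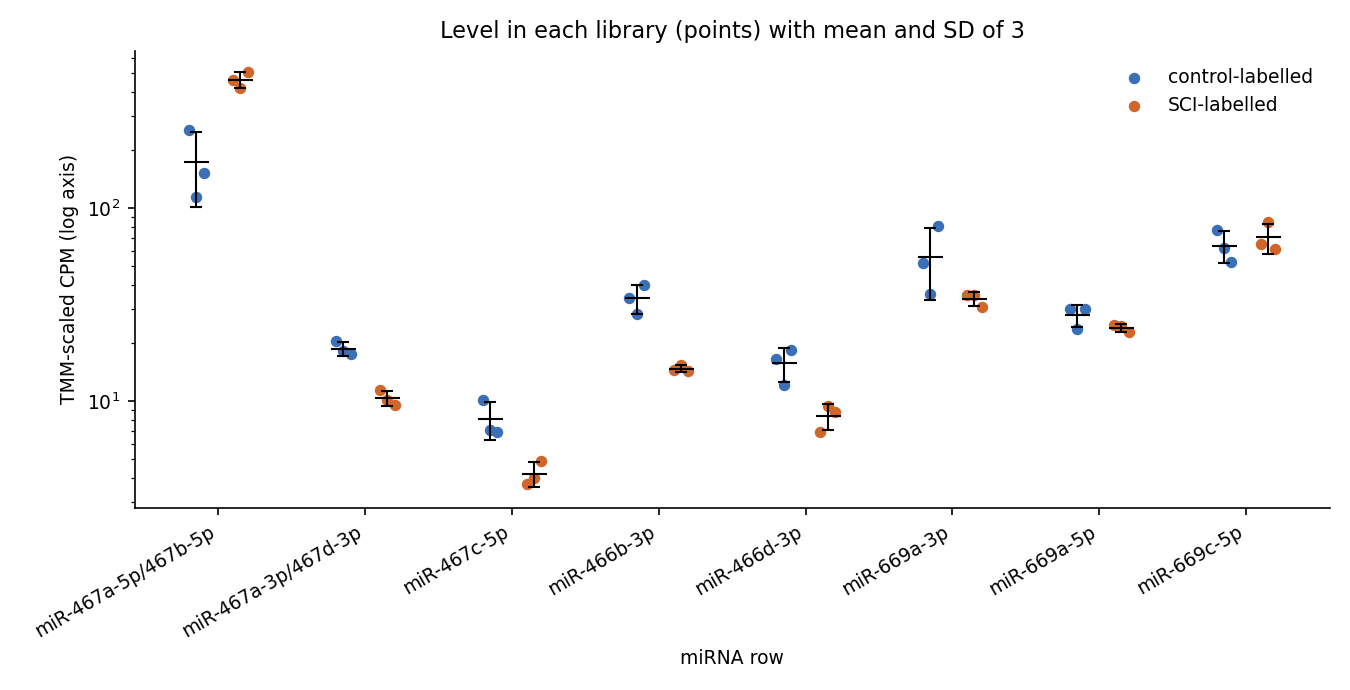
TMM-scaled CPM (y axis, log scale) of 8 rows in each library, with the mean and SD of 3 libraries per group. For miR-467a-5p/miR-467b-5p the SCI-labelled points (422 to 512 CPM) lie above the control-labelled ones (115 to 255 CPM), for miR-466b-3p below them, and for miR-669c-5p the points of both groups mix.

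Summed over the 64 distinct rows, the families reached 640, 418 and 547 CPM against 742, 709 and 767 CPM. The sum was 1.38 times as high in the SCI-labelled group, a direction that turned without miR-467a-5p/miR-467b-5p. This row held 39.9%, 27.5% and 27.9% of the sum against 62.2%, 59.5% and 66.7%. Without it the sum was 361 ± 50.1 and 274 ± 16.6 CPM (SD, n = 3 each), 1.32-fold lower in the SCI-labelled group, with no overlap. This sum still holds both miR-466a-3p (means of 34.0 and 14.6 CPM) and miR-466b-3p (34.2 and 14.7 CPM). Their counts are nearly equal, so part of the fall is counted more than once. No test was made of sums, since the rows were chosen with results of these data known.

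Sums were also taken by arm, and the difference between arms was not tested. The 27 distinct 3p rows summed to 196, 151 and 239 CPM against 114, 116 and 103 CPM, 1.76-fold lower in the SCI-labelled group, and the groups did not overlap. With miR-466a-3p left out, because it repeats miR-466b-3p, the ratio was 1.67-fold. Without control-labelled library 3 the 3p sum was 1.52-fold lower, and across the other scalings it was 1.61-fold to 1.87-fold lower. The 26 distinct 5p rows other than miR-467a-5p/miR-467b-5p summed to 183, 145 and 148 CPM against 160, 167 and 149 CPM, so those groups overlapped. Of the 10 tested 3p rows, 4 were lower, 0 higher and 6 not called, against 22.6% lower and 13.9% higher of the 288 tested 3p rows of the table. The median log2 change was -0.55, against -0.09 over those 288. Without miR-466a-3p, 3 of 9 were lower and the median was -0.37. Of the 21 tested 5p rows, 1 was higher, 2 lower (miR-466i-5p among them) and 18 not called, against 18.4% higher and 20.8% lower of all tested 5p rows, and the median was 0.09 against -0.02. DESeq2 and limma voom also called 0 of the 3p rows higher. At an unadjusted edgeR p under 0.05 there were 5 rows on each arm, against 45.1% of all 3p and 46.4% of all 5p rows.

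**Figure D4:**
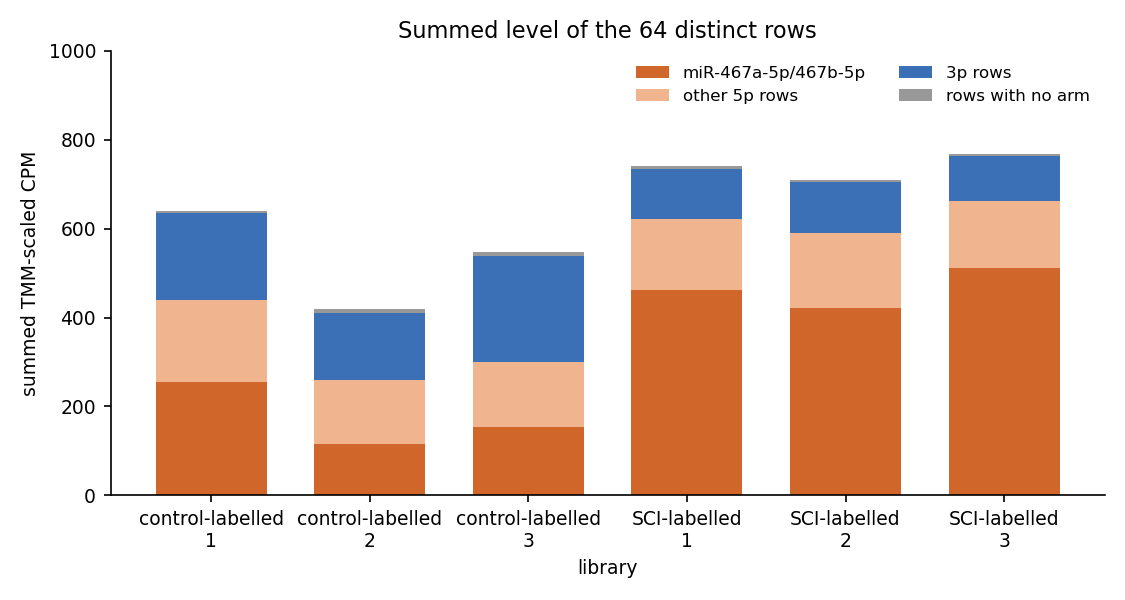
Summed TMM-scaled CPM (y axis) of the 64 distinct rows in each of the 6 libraries, split by strand. The segment of miR-467a-5p/miR-467b-5p is larger in the 3 SCI-labelled libraries, the 3p segment is smaller (103 to 116 against 151 to 239 CPM), and the other 5p rows stand at 145 to 183 CPM throughout.

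By name, the ratio of 5p to 3p counts, which needs no scaling between libraries, was compared as a description. Some of these counts are shared with other names, so the ratios are not always those of the same hairpins. miR-467a-5p shares its counts with miR-467b-5p, miR-467a-3p with miR-467d-3p and miR-466d-5p with miR-466n-5p. The counts of miR-466b-3p are nearly those of miR-466a-3p. Counts of miR-467a-5p were 12.5, 6.34 and 8.78 times those of miR-467a-3p against 40.6, 41.5 and 53.7 times, with no overlap. For miR-466b the ratio was 0.145, 0.115 and 0.0765 against 0.325, 0.25 and 0.254. In miR-466d it was 0.0291, 0.134 and 0.128 against 0.321, 0.279 and 0.182, and in miR-669a 0.576, 0.662 and 0.372 against 0.699, 0.684 and 0.738. miR-297b had 0.0648, 0.102 and 0.0776 against 0.125, 0.133 and 0.178. The ratios of miR-297b, and those of miR-466i at 2.5, 9.0 and 0.842 against 0.438, 0 and 0, were tilted by the filter, since the 5p row of each passed it only through the group where it was high. These 2 names are left out of the count. Of the other 6 names compared, miR-467a, miR-466b, miR-466d and miR-669a had a higher ratio in every SCI-labelled library, and in miR-466h and miR-669f the groups overlapped. Both arms of miR-467d were tested as well, but this name is not among the 6, and its 3p counts are those of miR-467a-3p. Its 5p counts (6, 2 and 13 against 14, 14 and 16) were higher in every SCI-labelled library. With its 3p counts lower in each, its ratio was higher there too. The share of names that did not overlap was 40.4% over the 171 names of the table left by the same exclusion, and 41.1% over all 180.

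**Figure D5:**
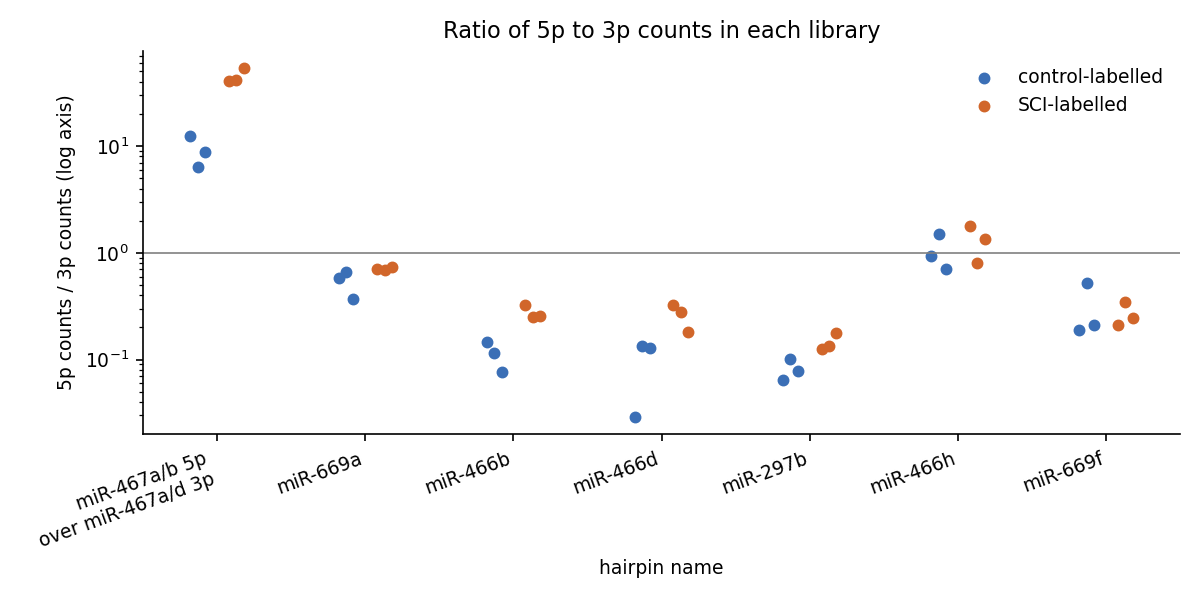
Ratio of 5p to 3p counts (y axis, log scale) in each library for 7 hairpin names. miR-466i is left out because its 5p count was 0 in 2 libraries, and miR-467d is not shown. Counts of both arms of miR-467a and of miR-466d-5p are shared with other names, and those of miR-466b-3p nearly so. For miR-467a, miR-669a, miR-466b and miR-466d all SCI-labelled points lie above the control-labelled points, as they do for miR-297b, whose 5p row passed the count filter only through the SCI-labelled libraries.

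Few tested rows had hairpins outside the intron. Of the 27 tested rows with hairpins only in the intron, 1 was higher (3.70%, background 15.4%) and 4 lower (14.8%, background 22.4%). Their log2 changes ran from -1.23 to 1.41. The 3 tested rows with hairpins only elsewhere were miR-466i-5p, miR-466i-3p and miR-466q, of which miR-466i-5p was called lower. All 8 rows with hairpins only elsewhere summed to 10.1, 10.7 and 10.5 CPM against 7.91, 3.24 and 3.64 CPM.

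Of the 32 rows that were not tested, 3 (miR-467f, miR-467g and miR-669g) had no count in any library, which allows levels of up to 0.341 to 0.544 CPM by library if 3 counts are taken as the limit for counting error. Another 12 had 1 to 9 counts over all libraries together and 17 had 10 or more, up to 43 for miR-467e-3p. All untested rows summed to 12.5, 12.7 and 15.4 CPM against 10.1, 7.25 and 8.29 CPM. The count filter fell between miR-466p-5p, tested with 13, 6 and 12 counts against 12, 6 and 9, and miR-669b-3p, not tested with 4, 7 and 13 counts against 4, 1 and 11.

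miRNAs outside the families were looked at where they share the repeats or the placental setting. RefSeq gave a mature sequence for 1175 of the 1482 rows. Among these, rows outside the families were searched for the seeds of the 7 sequences and for GUGUGUGU or ACACACAC. Matches on 1 particular chromosome were left out, for a reason that was not recorded, and are not described here. Of the matches kept, none shared a seed and 5 held the run, 2 of them tested. miR-574-5p, from chromosome 5, is shown for its GU repeat, with the seed in capitals.
miR-574-5p: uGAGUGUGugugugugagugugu
It had 388, 203 and 234 counts against 105, 98 and 96, with no overlap, and fell by 1.70 on the log2 scale (SE 0.33; edgeR adjusted p = 0.0042). miR-32-3p had 39, 40 and 56 counts against 42, 34 and 41 (log2 -0.41, edgeR adjusted p = 0.213). In the miR-290 to miR-295 cluster, which marks embryonic stem cells and trophoblast, 1 of 10 rows was tested. This row, miR-292a-5p, had 1, 0 and 1 counts against 15, 13 and 14. It passed the count filter only through the SCI-labelled libraries, so it had to differ to be tested. The cluster rested on few counts and summed to at most 0.803 CPM in a control-labelled and 5.93 to 9.10 CPM in the SCI-labelled libraries.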

How the data were processed

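Small RNA libraries were made from 3 µg of total RNA with the NEBNext kit, per the labels' protocols. The authors deposited raw read counts per miRNA row and a TPM column; the deposited TPM equals CPM of the column totals to within 2.74e-05, has no length term and was not used for tests. Bowtie and mm10 are named in the submitters' processing notes. Not given in the sources used here: the miRBase release, the mismatches allowed and how reads matching several miRNAs were counted, so any sharing of reads between these similar miRNAs carries into every value.

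Columns were matched to samples by their descriptions. In R 4.3.3, rows of the whole table with at least 10 counts in at least 3 libraries were kept (621), and rows with equal counts were joined (617). edgeR 4.0.16 scaled libraries by TMM on column totals and gave a robust quasi-likelihood F test of the group difference with no covariate, adjusted by Benjamini-Hochberg over 617 rows; SE is the size of the log2 change over the square root of F. Alternatives used DESeq2 1.42.0, limma 3.58.1 voom, other scalings, filters and joins, a replicate block and each library left out. On counts simulated for this comparison (617 rows, 200 changed, 607 kept), 56.6% of 2-fold and 99% of 4-fold changes were recovered. No 2 libraries of a group agreed within sampling noise. The series' design text names separate mice, so p-values measure the spread between animals together with that between libraries.

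Hairpins were matched by name to RefSeq on GRCm38.p6, the assembly mm10 denotes, and Sfmbt2 exons come from GENCODE M21. Named rows are all called members, the 8 most abundant, those whose call changes without 1 library, joined rows and the rows at the edge of the count filter; other rows named (miR-466b-5p, miR-466c-5p, miR-466q, miR-467e-5p and the extremes of ranges) were chosen after their values were seen. Members and lists were chosen with earlier results of these data known.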

Additional observations from a re-analysis of the deposited data

How the results depend on the processing

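For miR-467a-5p/miR-467b-5p and for miR-466a-3p and miR-466b-3p, direction and call were the same under all 17 alternatives. The count of members called higher, 1, became 2 with limma voom, 2 with equal rows kept separate (the same reads counted under 2 names) and 1 to 2 when each library was left out. The count called lower, 6, became 3 in a test against a fold of 1.5, in which miR-467a-3p, miR-466d-3p and miR-467c-5p were lost, and 2 to 6 when each library was left out: 3 without control-labelled library 1, 3 without SCI-labelled library 2 and 2 without SCI-labelled library 3. It was 8 with no filter and 5 with near-equal rows taken as 1. Lower calls over the whole table, 138 in the main fit, also became fewer, at 81 in the test against a fold of 1.5. They were 101 without control-labelled library 1, 99 without SCI-labelled library 2 and 88 without SCI-labelled library 3. DESeq2 gave the same counts of 1 and 6. The log2 ratio of the summed level, 0.47, was 0.74 with equal rows kept separate and 0.53 with near-equal rows taken as 1. It was 0.29 to 0.60 when each library was left out and 0.39 to 0.59 under other scalings. miR-297b-3p, which was not called, reversed to 0.009 without SCI-labelled library 3 and ranged from -0.386 to 0.009 when each library was left out. Upper quartile scaling moved the median of all rows by 0.12 on the log2 scale. Deviations of same-numbered libraries correlated at -0.285, 0.209 and -0.186, and those of differently numbered ones at -0.257 to 0.369. Replicate numbers are those of the sample titles. The deposited control columns are numbered 2, 3 and 5 and the SCI columns 1, 2 and 3. Neither these correlations nor the replicate block can therefore show whether animals were paired. With the replicate block the counts were 1 higher and 5 lower, against 71 and 108 over the whole table. There miR-466d-3p and miR-467c-5p lost their calls and miR-669l-5p gained one. With these counts, 32 of the 67 rows did not reach the filter. miR-466i-5p was not tested when a control-labelled library was left out. Leaving out rows that passed the filter through 1 group only was chosen after seeing the data and gave 1 higher and 5 lower.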
